A study of Rattus norvegicus with 8 samples.

Results

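Histones are the proteins around which DNA is wound in the nucleus, and 34 of the 19239 genes measured in rat saphenous arteries encode them. They were picked out by a rule on names, as the genes whose listed symbol begins in the way histone symbols do (Hist1h to Hist4h, H1f, H2af, H3f and the later H2a, H2b, H3c and H4c forms). Adult arteries came from male Wistar rats of 2 to 3 months and young arteries from male Wistar rats of 10 to 12 days, with 4 samples and 4 arrays at each age and no treatment in either group. An adult sample was made from the 2 arteries of 1 rat and a young sample from 4 arteries of 2 rats combined, so that a young value already averages over animals. The saphenous artery is a muscular artery of the hind limb, and the comparison addresses how its gene expression differs between early postnatal life and adulthood. Whole vessels were used, so every value mixes the RNA of smooth muscle, endothelium and the outer layer. Values are log2 expression on Affymetrix Rat Gene 1.0 arrays, and differences are adult minus young, each ± its standard error from limma (n = 4 arrays at each age), so that negative differences stand for lower levels in adult arteries.

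A core particle of chromatin is built from H2A with H2B and from H3 with H4, and the linker histone H1 binds where the DNA enters and leaves it. Replication-dependent histone genes lie in clusters, are transcribed mainly while DNA is copied, and mostly give short messages that end in a stem-loop instead of a poly(A) tail. Replacement histones come from single genes scattered over the genome, mostly have polyadenylated messages, and are as a rule made throughout the cell cycle. By this division 22 of the 34 genes were replication-dependent (2 of H1, 7 of H2A, 9 of H2B, 1 of H3 and 3 of H4), 9 were replacement histones (3 of H1, 5 of H2A and 1 of H3) and 3 were histones of the male germ line from the replication-dependent clusters. The 9 are all other histone genes by name, and among them H1foo, H1fnt and H2afb3 are also known from germ cells. H3 is thus represented by 1 gene in each of the main classes.

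Gene names are given as listed with the array. Of the 34 genes, 26 now carry another symbol for the same Entrez Gene number, which matters for a few of them. The gene listed as Hist1h2bcl1 (Entrez Gene 680403) is now Hist1h2bc, while the gene listed as Hist1h2bc (680312) is now H2bc12. The gene listed as Hist1h2bh (306945) is now Hist1h2bq, and that listed as Hist1h2ai (502129) is now hist1h2ail2. Many replication-dependent genes of a family are near-identical copies of each other, so a probe set made for one may also collect message of its neighbours, and single values within a family are uncertain in that respect.

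The sequences just upstream of these genes are shown because the results turn on genes of one class that differed between the ages to very unequal degrees. They are the 250 bases before the annotated start from the RefSeq promoter table (GRCr8 assembly), written 5′ to 3′ on the gene's own strand, and 33 of the 34 genes had an entry. Capitals mark matches to CCAAT, to the octamer ATTTGCAT and to the H1 box AAACACA, each on both strands, and to TATAAA on the gene's strand. No matches to different motifs overlapped. The first 3 belong to genes with large differences between the ages, the next to an H2B gene that did not pass the threshold, the fifth to the replacement gene of H3, and the last to the germ line pair Hist1h2aa and Hist1h2ba. The windows of Hist1h2bh and H3f3b lie within the annotated spans of these genes, so they precede an annotated start but not the whole gene.
Hist1h2ah (chr17:41812128-41812377, plus strand): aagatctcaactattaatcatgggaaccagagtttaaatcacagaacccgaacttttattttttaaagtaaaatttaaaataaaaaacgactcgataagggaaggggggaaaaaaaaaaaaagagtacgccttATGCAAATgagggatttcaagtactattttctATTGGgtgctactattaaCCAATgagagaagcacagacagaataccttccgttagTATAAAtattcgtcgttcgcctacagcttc
Hist1h2bcl1 (chr17:47392350-47392599, minus strand): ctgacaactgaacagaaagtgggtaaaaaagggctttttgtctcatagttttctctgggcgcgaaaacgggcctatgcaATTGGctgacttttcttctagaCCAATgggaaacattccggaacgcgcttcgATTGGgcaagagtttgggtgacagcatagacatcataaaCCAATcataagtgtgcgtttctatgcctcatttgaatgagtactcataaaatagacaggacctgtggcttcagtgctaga
Hist2h3c2 (chr2:186525912-186526161, plus strand): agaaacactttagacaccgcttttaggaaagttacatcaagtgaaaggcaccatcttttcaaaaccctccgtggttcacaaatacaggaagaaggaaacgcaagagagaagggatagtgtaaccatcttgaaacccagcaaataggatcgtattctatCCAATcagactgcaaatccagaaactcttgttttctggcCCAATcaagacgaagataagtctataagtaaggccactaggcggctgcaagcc
Hist1h2bh (chr17:41869342-41869591, minus strand): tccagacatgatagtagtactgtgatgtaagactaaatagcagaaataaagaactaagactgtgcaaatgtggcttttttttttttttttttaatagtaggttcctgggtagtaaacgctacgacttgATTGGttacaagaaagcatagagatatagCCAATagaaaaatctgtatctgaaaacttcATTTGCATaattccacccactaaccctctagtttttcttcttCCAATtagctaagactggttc
H3f3b (chr10:101757637-101757886, minus strand): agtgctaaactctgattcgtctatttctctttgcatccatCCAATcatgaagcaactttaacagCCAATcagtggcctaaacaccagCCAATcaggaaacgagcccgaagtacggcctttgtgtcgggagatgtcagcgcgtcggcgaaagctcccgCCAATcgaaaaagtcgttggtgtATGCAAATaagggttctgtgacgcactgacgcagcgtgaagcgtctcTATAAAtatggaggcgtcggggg
Hist1h2ba (chr17:41599662-41599911, plus strand): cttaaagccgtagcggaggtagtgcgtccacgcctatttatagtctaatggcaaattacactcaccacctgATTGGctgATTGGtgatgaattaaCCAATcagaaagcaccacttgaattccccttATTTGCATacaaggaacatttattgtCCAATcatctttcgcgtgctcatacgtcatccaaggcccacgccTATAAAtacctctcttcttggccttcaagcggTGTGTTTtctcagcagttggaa

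In Hist1h2ah the CCAAT boxes begin 85 and 67 bases before the start, the octamer 117 and the TATA box 30 bases before it. Hist2h3c2 has CCAAT boxes at 92 and 53 bases and neither of the other motifs. A CCAAT box was found in 18 of 21 replication-dependent windows (85.7%), against 34.3% of all 27457 windows in the table. It was present in all 9 H2B windows and in neither of the 2 H4 windows. The octamer, the element known from H2B promoters, stood in 7 of 21 replication-dependent windows (33.3%), 4 of them among the 9 H2B genes, against 1.5% of all windows. TATAAA was found in 8 of the 21 (38.1%), against 8.38% of all windows. The H1 box stood in 1 of 21 replication-dependent windows and in all 3 germ line windows, against 6.07% of all windows. The letters TTCCCGC, one form of the E2F site, were in 0 of the 33 windows, against 3.58% of all windows. These are exact matches of letters and not measured binding sites, and forms with a changed base were not counted.

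The levels of 17 of the 22 replication-dependent genes were lower in adult arteries, against 16% of all 19239 genes in that direction (two-sided test in limma with a Benjamini-Hochberg adjusted p below 0.01). Of the 22, 0 were higher in limma at this threshold and 0 with the methods' one-way test, where 16.7% of all genes were higher in limma. At an unadjusted limma p below 0.05, 18 were lower and 1 was higher, where 4720 of all 19239 genes were lower and 5317 higher. A fall of at least 2-fold was seen in 9 of the 22, against 1.32% of all genes. In the same 17 genes all adult arrays lay below all young arrays, which was the case for 21.5% of all genes. The median difference of the 22 genes was -0.70, while that of all genes was 0.00. In whole arteries, fewer cells with histone message and less message per cell cannot be told apart.

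**Figure D1:**
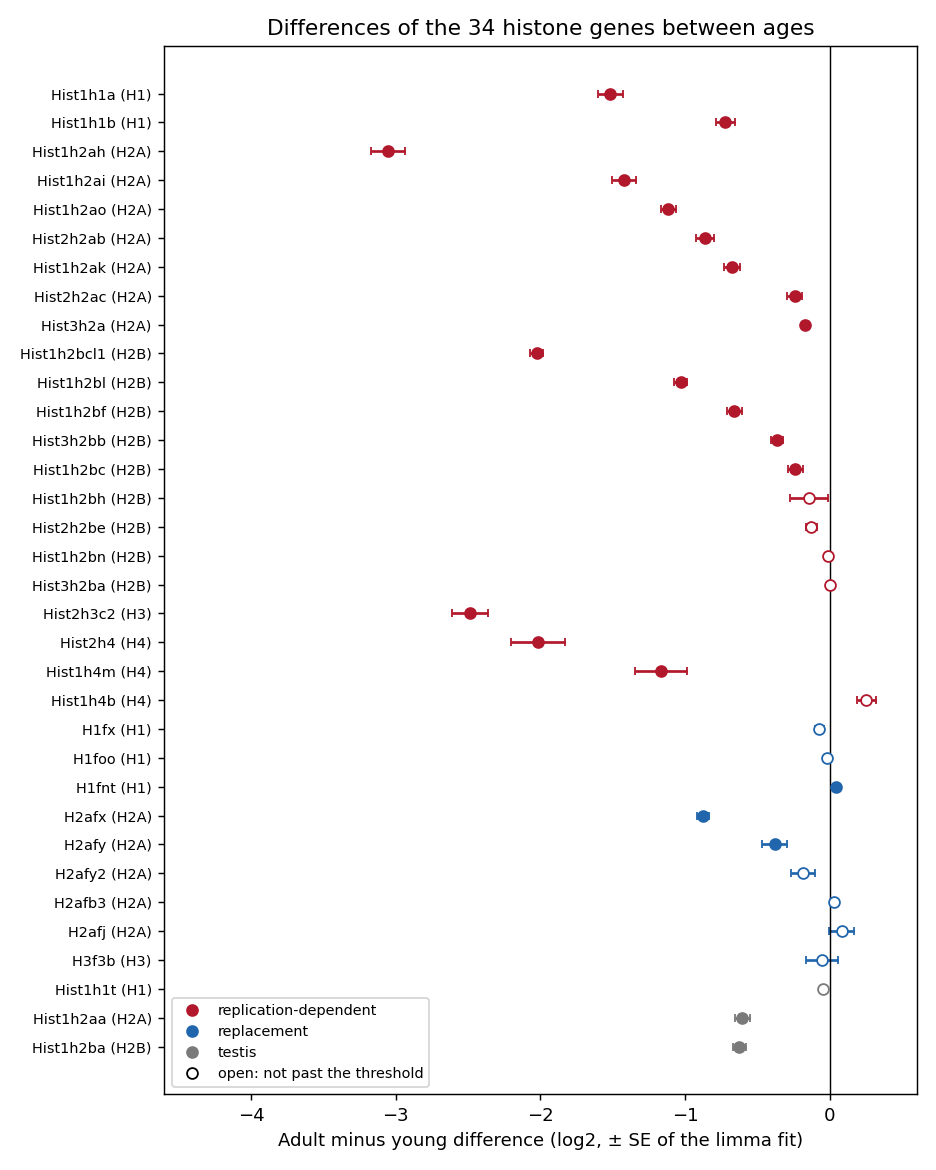
Adult minus young difference of each of the 34 histone genes on the log2 scale, grouped by class and family. Points are the limma differences, bars their standard errors (n = 4 arrays per age), and open points did not pass the adjusted threshold. Replication-dependent genes extend to -3.05, while 6 of the 9 replacement genes are open and lie near 0.

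Linker histones of the replication-dependent class fell in both measured cases, beside 16% of all genes lower. Hist1h1a, which encodes the main-type linker histone now named H1f1, had 7.24, 7.25, 7.19 and 7.23 in adult arteries, against 9.0, 8.69, 8.75 and 8.53 in young arteries. The adult arrays lay within a span of less than 0.1 just below the median of the table, and every young array was more than 1 unit above them. The difference was -1.52 ± 0.0888 (2.86-fold, adjusted p = 1.67e-05). Hist1h1b had 7.33, 7.39, 7.33 and 7.34 in adult arteries, against 8.21, 8.13, 8.06 and 7.88 in young arteries, a difference of -0.72 ± 0.0649 (adjusted p = 0.000109).

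All 7 genes named as H2A were lower in adult arteries, beside 16% of all genes, and H2A had the histone gene with the largest difference. The family was taken from the name, also for Hist1h2ao, the only one of the 7 without a CCAAT box in its window. Hist1h2ah had 7.34, 7.49, 7.26 and 7.44 in adult arteries, against 10.56, 10.12, 10.64 and 10.42 in young arteries. The difference was -3.05 ± 0.115, an 8.31-fold lower signal in adult arteries (adjusted p = 3.07e-06). Hist1h2ai had 7.24, 7.27, 7.22 and 7.26 in adult arteries, against 8.78, 8.58, 8.85 and 8.47 in young arteries (-1.42 ± 0.0829). Hist1h2ao had 7.22, 7.24, 7.17 and 7.28 in adult arteries, against 8.45, 8.23, 8.29 and 8.40 in young arteries (-1.12 ± 0.0517). All of these genes of chromosome 17 thus had adult arrays close to the middle of the table and young arrays well above it.

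The other H2A genes differed less. Hist2h2ab, of the chromosome 2 cluster, had means of 7.56 ± 0.0674 in adult and 8.42 ± 0.115 in young arteries (SD, n = 4 each), a difference of -0.86 ± 0.0611. Hist1h2ak had a difference of -0.68 ± 0.0547. It shares a run of 51 bases with Hist1h2ai in its upstream window, beginning 86 bases before the start in both, which holds the CCAAT box at 70 bases. The smallest differences were those of Hist2h2ac (-0.24 ± 0.0517, adjusted p = 0.0071) and Hist3h2a (-0.17 ± 0.0199, adjusted p = 0.000354). The call of Hist2h2ac was lost in 6 of the 8 fits with 1 array left out (without any one of the adult arrays, or without young array 2 or 4), with adjusted p between 0.0144 and 0.0223. It had 7.04, 7.06, 7.09 and 7.01 in adult arteries, against 7.42, 7.29, 7.16 and 7.30 in young arteries, so the groups lay apart within a narrow range.

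In H2B, 5 of 9 genes were lower in adult arteries, beside 16% of all genes, and 4 did not pass the threshold. Hist1h2bcl1 had 7.53, 7.60, 7.44 and 7.40 in adult arteries, against 9.49, 9.47, 9.55 and 9.57 in young arteries. The arrays of each age lay close together, and the difference was -2.03 ± 0.0458 (4.07-fold, adjusted p = 4.77e-07). Hist1h2bl had 7.70, 7.78, 7.76 and 7.74 in adult arteries, against 8.91, 8.71, 8.76 and 8.73 in young arteries (-1.03 ± 0.0451). Hist1h2bf had 7.51, 7.70, 7.54 and 7.51 in adult arteries, against 8.32, 8.17, 8.21 and 8.20 in young arteries (-0.66 ± 0.0533). Smaller falls were measured for Hist3h2bb (-0.37 ± 0.0398) and for the gene listed as Hist1h2bc (-0.24 ± 0.0529, adjusted p = 0.00847). The last had 7.14, 7.27, 7.14 and 7.13 in adult arteries, against 7.52, 7.42, 7.39 and 7.29 in young arteries, and its call was lost in 6 of the 8 fits with 1 array left out (without adult array 1, 3 or 4, or young array 1, 2 or 3), with adjusted p between 0.017 and 0.0258.

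Hist1h2bh stood out among the H2B genes that did not pass. It had 11.23, 11.34, 10.83 and 10.96 in adult arteries, against 11.34, 10.99, 11.24 and 11.36 in young arteries. The groups overlapped over most of their range, and the difference was -0.14 ± 0.133 (adjusted p = 0.427). Its upstream window, shown above, has 3 CCAAT boxes and the octamer, whereas that of Hist1h2bcl1 has 4 CCAAT boxes and no exact octamer. The window of Hist1h2bcl1 holds ATTTGAAT, which is close to the octamer ATTTGCAT but was not counted. Over all replication-dependent windows, a CCAAT box was in 14 of 16 windows of genes that fell and in 4 of 5 of genes that did not pass, and the octamer was in 5 of 16 and in 2 of 5. Hist2h2be had a difference of -0.13 ± 0.0356 (adjusted p = 0.0231), and without young array 2 it passed the threshold (-0.15, adjusted p = 0.00768). Hist1h2bn (-0.01 ± 0.0207) and Hist3h2ba (0.00 ± 0.018) had almost the same low level at both ages.

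H3 and H4 form the inner tetramer of the core particle. Hist2h3c2, the only replication-dependent H3 gene with a listed symbol, had 10.02, 10.31, 10.13 and 10.52 in adult arteries, against 12.70, 12.56, 12.73 and 12.93 in young arteries. The difference was -2.49 ± 0.122 (5.61-fold, adjusted p = 8.21e-06). In contrast to the H1 and H2A genes, its adult arrays were still far above the median of the table. Hist2h4 had 8.12, 8.09, 7.75 and 7.95 in adult arteries, against 9.88, 9.60, 9.99 and 10.50 in young arteries, with the widest spread among young arrays of all members (-2.01 ± 0.188, adjusted p = 0.00013).

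The H4 genes of chromosome 17 differed from each other. Hist1h4m had 9.89, 10.46, 10.28 and 10.31 in adult arteries, against 11.71, 11.02, 11.59 and 11.29 in young arteries (-1.17 ± 0.180, adjusted p = 0.00153). Hist1h4b had 8.69, 8.75, 8.75 and 8.76 in adult arteries, against 8.64, 8.31, 8.50 and 8.48 in young arteries. Every adult array of Hist1h4b thus lay above every young array, a separation seen in 24.4% of all genes, but the difference of 0.25 ± 0.0643 did not pass the threshold (adjusted p = 0.0148). Without young array 1 it passed (0.30, adjusted p = 0.0042). The 2 genes lie in one cluster and share a run of 28 bases close to their starts. It begins 60 bases before the start in Hist1h4m and 75 in Hist1h4b. The run is not particular to them, as Hist1h2ao, counted with H2A by its name, has it with 1 base changed, also at 60 bases. The 120 bases before the starts of Hist1h4m and Hist1h4b are shown with the run in capitals (GRCr8, plus strand).
Hist1h4m (chr17:47393644-47393763): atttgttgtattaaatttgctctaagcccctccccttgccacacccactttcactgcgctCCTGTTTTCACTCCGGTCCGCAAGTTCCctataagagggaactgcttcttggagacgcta
Hist1h4b (chr17:47176126-47176245): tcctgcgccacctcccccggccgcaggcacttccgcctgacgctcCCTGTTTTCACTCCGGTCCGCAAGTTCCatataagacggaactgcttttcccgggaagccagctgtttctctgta

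**Figure D2:**
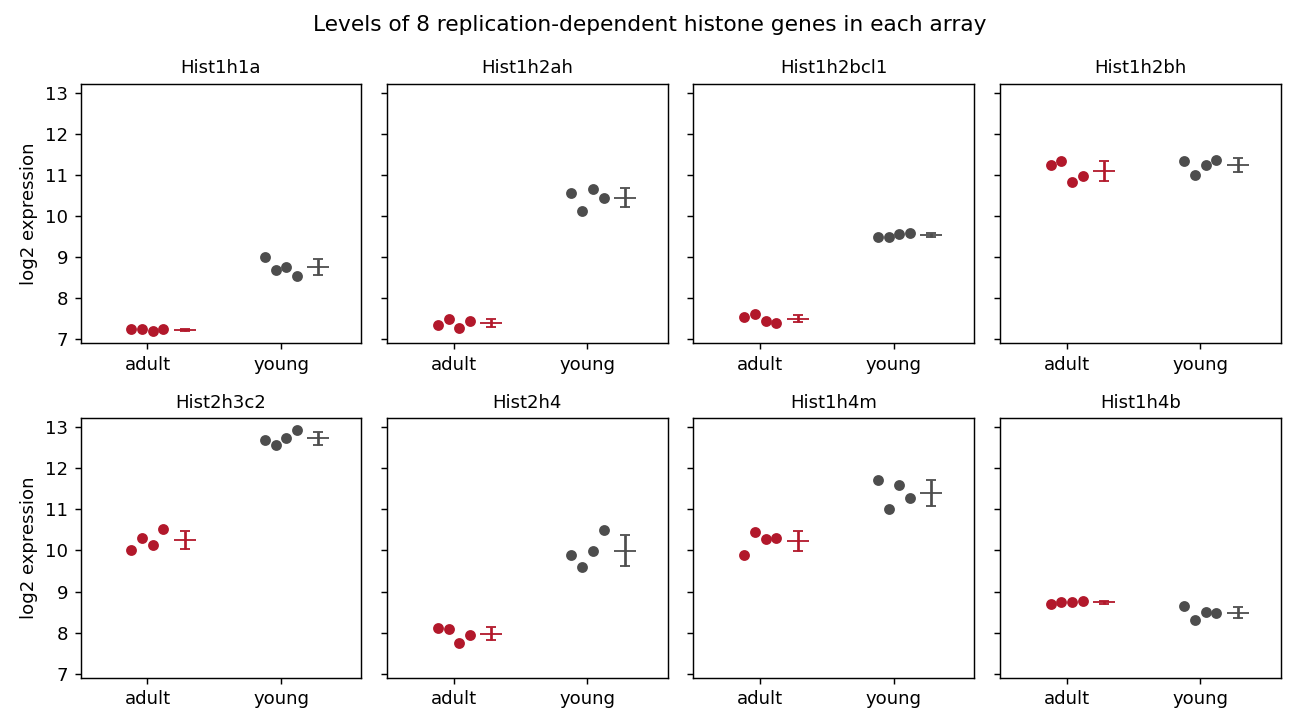
Log2 level of 8 replication-dependent histone genes on each array, adult left and young right in every panel. Points are arrays, and lines with bars are the mean and SD (n = 4). Groups lie apart in Hist1h1a, Hist1h2ah, Hist1h2bcl1, Hist2h3c2, Hist2h4 and Hist1h4m with adult below young, overlap in Hist1h2bh, and lie apart with adult above young in Hist1h4b.

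Genes lower in adult arteries were found in each of the histone clusters, beside 16% of all genes lower. Of the chromosome 17 genes, 3 of 4 in the first cluster by position (median difference -1.27) and 8 of 10 in the second (median -0.70) were lower in adult arteries. On chromosome 2, 4 of 5 genes fell (median -0.86). On chromosome 10, where the cluster is small, 2 of 3 fell (median -0.17), and all 3 adult means lay below the table's median. Neighbours that share an upstream region and are read away from each other had differences of similar size in 1 case and unequal calls in another. Hist2h2ac and Hist2h2be, with 226 bases between their starts, had differences of -0.24 and -0.13, of which the first passed. Hist3h2bb and Hist3h2a, 218 bases apart, had -0.37 and -0.17. These 3 pairs of genes, the germ line pair included, share most of their windows, so they do not count as separate sequences in the motif shares.

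Over the 17 genes that fell, the mean level lay between 7.66 and 7.77 on the adult arrays and between 8.75 and 8.96 on the young arrays. Young array 1 was the highest young array in 11 of the 17 genes and young array 2 the lowest in 11, and adult array 2 was the highest adult array in 11. These 17 genes were chosen for being lower in adult arteries, so a gap between these means was given by the choice. Single genes came closer, as in Hist1h2bc, with 7.27 on adult array 2 and 7.29 on young array 4. With 1 array left out at a time, 15 to 16 replication-dependent genes were lower in adult arteries, and 15 of the 17 remained in all 8 fits. The lowest value of the table corresponds to 111 on the linear intensity scale, which compresses differences of weakly expressed genes. The adult mean of 10 of the 22 genes lay below the table's median of 7.29, against 2 of the 22 in young arteries. With this floor subtracted and an offset of 16 added, the median difference of the 22 genes was -1.28, that of Hist1h2ah -4.18 and that of Hist1h4m -1.23, with the same 17 genes called.

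**Figure D3:**
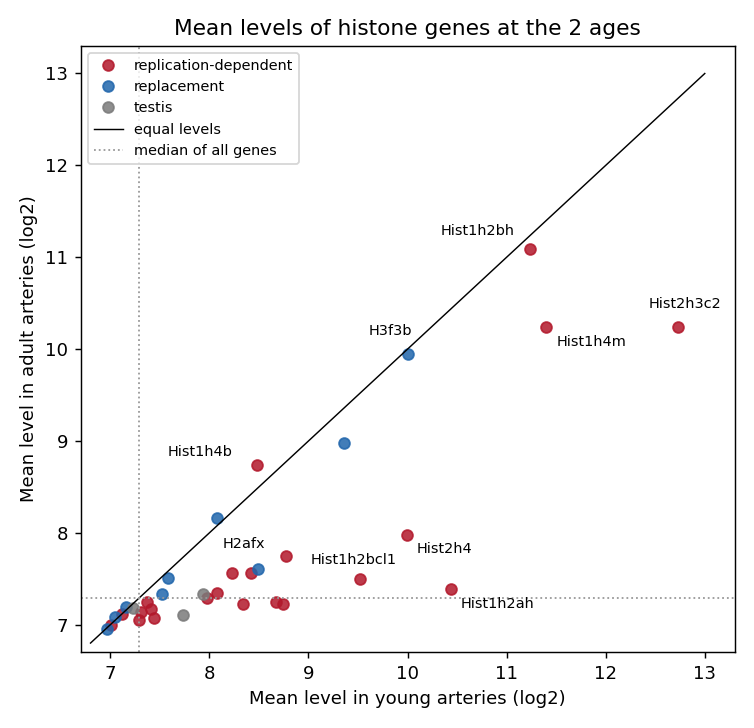
Mean log2 level of each histone gene in young (x axis) and adult arteries (y axis), with the line of equality and dotted lines at the median of all genes, 7.29. Most replication-dependent genes lie below the line, many of them with an adult mean close to the dotted line, whereas H3f3b and Hist1h2bh lie near the line at high levels.

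Of the replacement histones, 2 of 9 were lower, 1 was higher and 6 did not pass the threshold, with a median difference of -0.05. The sign of this median turned when the arrays were scaled to their ribosomal protein genes (0.003). Over 9 genes, these counts lie close to the background shares of 16% lower and 16.7% higher, and whether the classes differ was not tested. Without the 3 known from germ cells, a count made after the values were seen, 2 of 6 were lower and 0 higher in limma (0 higher also at an unadjusted p below 0.05), with a median of -0.13. H3f3b encodes H3.3, the H3 that is placed into chromatin outside DNA replication. It had 9.81, 9.81, 10.00 and 10.19 in adult arteries, against 10.12, 10.10, 9.76 and 10.04 in young arteries. The groups overlapped, and the difference was -0.05 ± 0.112 (adjusted p = 0.734), with a sign that turned under the same scaling. Its upstream window has 4 CCAAT boxes, a TATA box and an octamer, although it is not a replication-dependent gene.

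Among the replacement H2A genes, H2afx had the clearest difference. It encodes H2A.X, which is phosphorylated around breaks in DNA, and its gene is known to give both a stem-loop and a polyadenylated message. It had 7.55, 7.65, 7.71 and 7.54 in adult arteries, against 8.50, 8.46, 8.52 and 8.45 in young arteries (-0.87 ± 0.0414, adjusted p = 7.25e-06). H2afy, which encodes the large variant macroH2A1 known from the inactive X chromosome, had 8.97, 8.98, 8.99 and 8.98 in adult arteries, against 9.19, 9.29, 9.34 and 9.63 in young arteries. Its adult arrays were almost equal while its young arrays spread, and the difference of -0.38 ± 0.0865 passed narrowly (adjusted p = 0.00923). The call was lost in 6 of the 8 fits with 1 array left out (without any one of the adult arrays, or without young array 2 or 3), with adjusted p between 0.0167 and 0.0253. Its relative H2afy2 (macroH2A2) had 7.35, 7.30, 7.30 and 7.40 in adult arteries, against 7.45, 7.39, 7.48 and 7.77 in young arteries (-0.18 ± 0.081, adjusted p = 0.106).

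The remaining replacement genes differed little. H2afj had 8.10, 8.37, 8.03 and 8.15 in adult arteries, against 8.09, 8.22, 8.08 and 7.93 in young arteries (0.08 ± 0.0866, adjusted p = 0.481). H1fx, a linker histone, had 7.46, 7.57, 7.48 and 7.51 in adult arteries, against 7.53, 7.55, 7.60 and 7.63 in young arteries (-0.07 ± 0.0307, adjusted p = 0.0911). H2afb3 (0.03 ± 0.0123) and the oocyte linker histone H1foo (-0.02 ± 0.0186) did not pass either. The single gene that was higher in adult arteries was H1fnt, a linker histone of spermatids, at 7.07, 7.10, 7.08 and 7.09 in adult arteries, against 7.04, 7.06, 7.04 and 7.04 in young arteries. Its difference of 0.04 ± 0.00957 (adjusted p = 0.00907) lies in the lowest part of the scale, and the call was lost in 7 of the 8 fits with 1 array left out, all but that without young array 2, with adjusted p between 0.011 and 0.0296.

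Of the 3 germ line histones of the clusters, which replace the common forms during sperm formation, 2 were lower in adult arteries. Of all genes, 16% were lower. Hist1h2aa had 7.28, 7.38, 7.30 and 7.37 in adult arteries, against 8.06, 7.84, 7.88 and 7.97 in young arteries (-0.61 ± 0.0514, adjusted p = 8.26e-05). Hist1h2ba had 7.11, 7.12, 7.10 and 7.09 in adult arteries, against 7.84, 7.60, 7.76 and 7.74 in young arteries (-0.63 ± 0.0455, adjusted p = 4.14e-05). The 2 genes are read away from each other from starts 240 bases apart, and their differences were nearly equal. How far these probe sets also collect message of the replication-dependent H2A and H2B genes was not tested. Hist1h1t, the linker histone of spermatocytes, had a difference of -0.05 ± 0.0169 (adjusted p = 0.0558).

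A further 14 rows without a histone symbol in the listing carry the Entrez Gene number of a gene that is now named as a histone. They lie outside the naming rule and are not among the 34. Of these, 5 were lower, 2 higher and 7 not past the threshold, beside 16% of all genes lower and 16.7% higher. H1f0, the replacement linker histone known from resting cells, had 9.74, 9.51, 9.48 and 9.47 in adult arteries, against 10.68, 10.59, 10.57 and 10.28 in young arteries (-0.98 ± 0.0983, adjusted p = 0.000186). H3c1, an H3 gene of the chromosome 17 cluster, had 8.14, 8.46, 8.25 and 8.41 in adult arteries, against 9.13, 9.04, 8.98 and 9.14 in young arteries (-0.76 ± 0.0759). Both had groups that lay apart. The others that fell were an H2A gene now named Hist1h2ai (Entrez Gene 100360754, -1.89 ± 0.103), Hist1h2af (-1.51 ± 0.0647) and H3f4 (-0.58 ± 0.0552). The 2 that were higher, H2al3 and H2al2l, differed by 0.05 each, and the calls were lost in 7 and in 2 of the 8 fits with 1 array left out (without adult array 3 or young array 3 for H2al2l, and in all but that without adult array 4 for H2al3).

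Genes that switch the replication-dependent histone genes on and process their messages were compared as a list of 20, of which 16 were measured. In this list 6 genes were lower in adult arteries, where 16% of all genes were, and 0 higher at the adjusted threshold in limma (1 at an unadjusted p below 0.05, and 0 with the methods' one-way test), with a median difference of -0.09. Cdk2, the kinase that drives entry into DNA replication and acts on the histone activator NPAT, had 7.69, 7.49, 7.44 and 7.48 in adult arteries, against 8.52, 8.33, 8.52 and 8.50 in young arteries (-0.94 ± 0.0665). Its partners Ccne2 (-0.36 ± 0.0357) and Ccne1 (-0.24 ± 0.0126) also fell, as did Lsm11 (-0.32 ± 0.0434), a subunit of the U7 particle that cuts histone messages. Casp8ap2 (FLASH, -0.20 ± 0.0388) and the cap-binding gene Ncbp1 (-0.14 ± 0.0304) passed, but each call was lost in 6 of the 8 fits with 1 array left out. The fits that kept Casp8ap2 were those without adult array 1 or young array 4, and those that kept Ncbp1 were without adult array 3 or young array 2. Npat itself (0.00 ± 0.0177, adjusted p = 0.858) and Slbp, the protein that binds the stem-loop (-0.07 ± 0.0312, adjusted p = 0.123), did not pass.

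Histone chaperones, which carry histones and hand them to DNA, were lower in 13 and higher in 2 of 31 measured genes of a list of 35, with a median of -0.14. Of all genes, 16% were lower and 16.7% higher. Asf1b, which carries H3 with H4 in dividing cells, differed by -0.64 ± 0.0371 and the importin Ipo4 by -0.57 ± 0.0644. Cdan1 (-0.44 ± 0.0283), Hjurp, the chaperone of the centromeric H3 (-0.44 ± 0.028), Chaf1b of the CAF-1 complex (-0.30 ± 0.0278) and Nasp (-0.14 ± 0.0152) were lower as well. Nap1l4 was higher (0.44 ± 0.0703, adjusted p = 0.00173). Atrx, which places H3.3 together with Daxx, was higher by 0.14 ± 0.0316, a call that held only without young array 2 and without young array 4 among the 8 fits with 1 array left out. Daxx (0.04 ± 0.0152, adjusted p = 0.0671) and the H2A.Z chaperone Anp32e (0.05 ± 0.0421, adjusted p = 0.422) did not pass.

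Genes of DNA replication and cell division were almost uniformly lower. Of 28 listed genes 22 were measured, and 21 were lower and 0 higher in adult arteries in limma (0 higher also at an unadjusted p below 0.05 and with the methods' one-way test), beside 16% of all genes lower, with a median of -0.59. Their mean level lay between 7.18 and 7.19 on the adult arrays and between 7.90 and 7.95 on the young arrays. Mki67, the proliferation antigen Ki-67, had 6.98, 6.98, 6.95 and 6.97 in adult arteries, against 9.38, 9.23, 9.35 and 9.53 in young arteries (-2.40 ± 0.0585). Ccna2 (-2.04 ± 0.116) and Top2a (-1.73 ± 0.0153) followed, and Cenpa, the centromeric H3, differed by -0.16 ± 0.014. Pcna, the replication clamp, fell by less (-0.32 ± 0.0663, adjusted p = 0.00638) and lost its call in 6 of the 8 fits with 1 array left out, all but those without adult array 1 or young array 4. Gmnn did not pass (-0.04 ± 0.0228, adjusted p = 0.225). The part that cell division has in the histone levels was not tested.

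**Figure D4:**
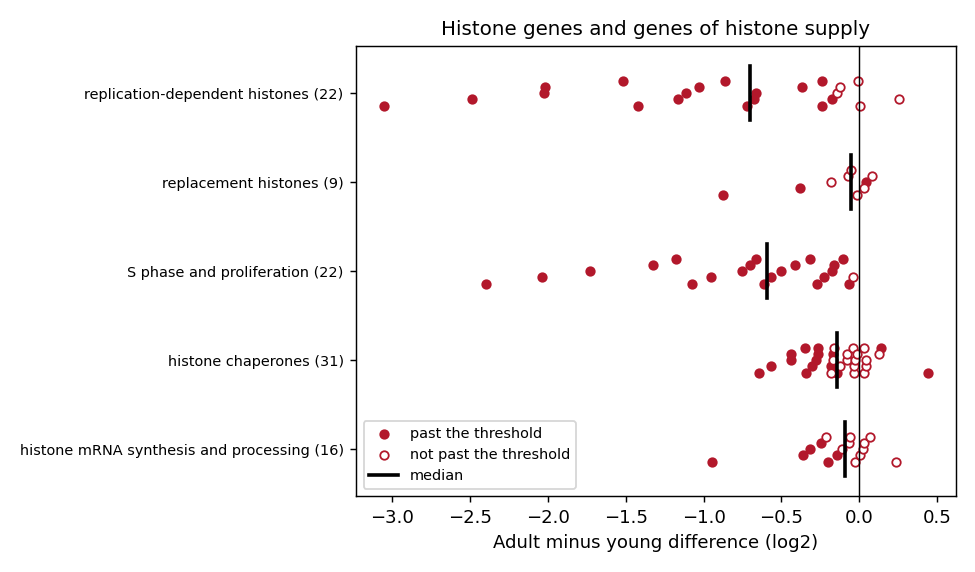
Adult minus young difference (log2) of each gene in 5 groups, the replication-dependent histones, the replacement histones, the histone mRNA list, the histone chaperones and the S phase and proliferation list. Points are genes and lines are group medians, at -0.70 for replication-dependent histones, -0.05 for replacement histones, -0.09 for the histone mRNA list, -0.14 for chaperones and -0.59 for S phase genes.

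Marker genes of several cell types of an artery also differed with age, in the same samples. Of all genes 16% were lower and 16.7% higher in limma. At an unadjusted p below 0.05, 4720 of the 19239 genes were lower and 5317 higher. The adjusted counts of the skeletal muscle, erythroid and adipocyte lists were not above these shares. Smooth muscle markers had a mean level of 12.39 to 12.54 on adult and 11.79 to 11.87 on young arrays, with 7 of 9 higher in adult arteries. Endothelial markers lay at 8.42 to 8.83 on adult and 9.32 to 9.81 on young arrays (4 of 8 lower), and fibroblast markers at 10.58 to 10.80 on adult and 11 to 11.08 on young arrays (6 of 10 lower, 2 higher). Schwann cell markers lay at 7.93 to 7.96 on adult and 8.12 to 8.22 on young arrays (2 of 6 lower, and 3 lower and 2 higher at an unadjusted p below 0.05). In S100b (0.09 ± 0.0219) and Gfap (0.09 ± 0.0264) every adult array lay above every young array. Leukocyte markers lay at 7.29 to 7.33 on adult and 7.15 to 7.19 on young arrays (4 of 12 higher). Skeletal muscle markers lay at 7.57 to 7.64 on adult and 7.62 to 8.11 on young arrays (1 of 11 lower, 7 at an unadjusted p below 0.05), with the lowest young value on young array 2. Without that array 6 of 11 passed as lower, among them Ckm (-0.62, adjusted p = 0.00177) and Acta1 (-0.60, adjusted p = 0.00594), while 16 replication-dependent histones were lower. The only call with all arrays, Myh2, was lost in 5 of the 8 fits with 1 array left out (without adult array 1, 2 or 3, or young array 1 or 3), which left 0 of 11 in limma. Endothelial markers lower in adult arteries numbered 6 of 8 without young array 4 and 3 to 4 in the other fits with 1 array left out, and the Schwann cell count was 3 of 6 without young array 1. Without adult array 2, 1 Schwann cell marker, S100b, passed as higher (0.10, adjusted p = 0.00892). Erythroid markers lay at 7.64 to 7.78 on adult and 7.78 to 8.07 on young arrays (0 of 7 past the threshold in limma, 3 at an unadjusted p below 0.05, and 1 without young array 1) and adipocyte markers at 7.14 to 7.25 on adult and 7.17 to 7.41 on young arrays (1 of 8 higher). Their part in the histone differences was not tested.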

How the data were processed

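Total RNA of 8 whole-artery samples was labelled with biotin and hybridised to Affymetrix Rat Gene 1.0 arrays, with a single array for each sample. The deposited values are log2 expression, made by the authors with quantile normalization and a custom definition of the chip that gives every Entrez gene its own probe set. RMA is named in the submitters' processing notes, without a version, and not in the paper. The background correction and the labelling primer are not given in the sources used here, and the primer matters for histone messages, of which many lack a poly(A) tail. All 8 columns hold the same sorted values, so no overall shift between the ages can be seen. No detection calls were used, and precision is limited by the small number of arrays.

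The labels gave the age of every sample. The ages were compared by lmFit and eBayes of limma 3.58.1 (R 4.3.3), two-sided and without covariates, on all 19239 rows, with Benjamini-Hochberg adjustment over all of them and a threshold of 0.01 without a minimum fold. Of the rows, 16592 carried a listed symbol, and current symbols were taken through the Entrez number from a RefSeq table of the GRCr8 assembly. The name rule for the 34 members uses no measured value, but the histones as a subject, the rule and all gene lists were chosen with earlier results of these data known. Counts of marker lists with 1 array left out and of replacement histones without those of germ cells were added after the data were seen. Values per array are given for the 3 members with the largest differences in each family and class, for those against the majority of their class and for compared pairs, and of each list for marked genes and the highest and lowest called. Among the alternatives were the methods' one-way test, an intensity trend, array weights, subtraction of the lowest intensity, centring on 27 ribosomal protein genes, removal of the dimmest 25% of rows, blocks for the replicate number and for the number in the sample code, and each array left out in turn. The fit was tested on simulated data. Promoter windows and motif matches came from the RefSeq table without a statistical test.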

Additional observations from a re-analysis of the deposited data

Results flagged for a closer look

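In 7 of 68 groups of 4 arrays, 1 array stood apart from the other 3 by more than 0.829 of the group's range, the 95% critical value of Dixon's test, which chance exceeds in about 1 in 20 groups. Adult array 2 was concerned in 3 genes, with 7.39 in Hist1h1b, 7.70 in Hist1h2bf and 7.27 in Hist1h2bc, each above the other adult arrays. Adult array 1 had 6.98 in H1foo, above the other adult arrays, and 8.69 in Hist1h4b, below them. Among young arrays, array 2 had 7.06 in H1fnt and array 3 had 7.03 in Hist1h2bn, both above the other young arrays.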

How the results depend on the processing

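Of 678 values of single histone genes under 20 alternatives, 607 kept their direction and their side of the threshold, 50 no longer passed, 9 newly passed and 12 changed sign. The count of replication-dependent genes that were lower (17) lay between 13 and 18 under all of them, with Hist2h2be added in the 2 settings that gave 18 (the intensity trend and an adjusted p below 0.05). At least 1.5-fold, 1427 of all genes passed instead of 6296, with 1 replacement histone lower instead of 2 and 0 higher instead of 1, 1 gene of the histone mRNA list lower instead of 6, 1 chaperone lower instead of 13 and 0 higher instead of 2, and 11 proliferation genes lower instead of 21. With centring on ribosomal protein genes, 3952 genes passed, 40.8% of them lower instead of 48.9%. Under it the histone mRNA list had 2 lower and 1 higher, chaperones 6 lower and 1 higher, replacement histones 0 higher and replication-dependent histones 1 higher. The adjusted p of Hist1h2ah was 2.78e-234 in this fit, against 3.07e-06 in the main fit. Among the histone genes, the adjusted p followed the size of the difference alone. Calls of this fit therefore cannot be read like those of the other fits. This centring also turned the sign of H1foo (0.0403), H3f3b (0.0027), Hist1h2bn (0.0481) and Hist1h1t (0.0094), and it moved the median of all genes to 0.06. One replication-dependent gene, Hist1h4b, was higher (1 instead of 0) also with the intensity trend, without the dimmest rows, with the floor subtracted and at an adjusted p below 0.05. Replacement histones had 1 lower with the methods' one-way test, and 0 higher without the dimmest rows, with the code number as a block and without adult array 1 and young array 4 together. Chaperones had 1 higher with the one-way test and with the trend. The sign of Hist3h2ba turned with array weights (-0.0046) and without adult array 1 and young array 4 (-0.0066), which also turned H3f3b (0.0043). The cause of these changes was not tested.

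Deviations of same-numbered adult and young samples had correlations between -0.082 and 0.04. Those of differently numbered samples lay between -0.294 and 0.244. With 4 arrays at each age, these correlations cannot decide whether samples of a number were handled together. With the replicate number as a block, 14 replication-dependent genes were lower, replacement histones had 1 lower and 0 higher, and chaperones 1 higher.

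With 1 array left out, between 4951 and 5759 of all genes passed. The replication-dependent genes had 15 to 16 lower and 0 to 1 higher, replacement histones 1 to 2 lower and 0 to 1 higher, the histone mRNA list 4 to 6 lower and chaperones 13 to 14 lower and 1 to 2 higher. Differences then ranged from -0.012 to 0.011 in Hist3h2ba, from -0.022 to 0.007 in Hist1h2bn and from -0.025 to 0.0002 in H1foo.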
